A study of Mus musculus with 30 samples.

Results

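The leptomeningeal matrix genes are 9 named genes, Col1a1, Col1a2, Col3a1, Dcn, Lum, Ogn, Slc6a13, Aebp1 and Fn1, taken by symbol from a table of 23303 gene entries in which all 9 were found. They were followed through 16 RNA-seq libraries of mouse amygdala, each made from the pooled bilateral punches of 2 male C57BL/6J mice, wild type and 2 to 3 months old. HC mice (6 libraries) were handled and otherwise stayed in their home cage, FC mice (6 libraries) were killed 2 h after auditory fear conditioning, and Immo+FC mice (4 libraries) had been immobilized for 2 h a week before the same conditioning. There was no group with immobilization alone, and the punches, aimed at the basolateral nucleus, could hold neighbouring tissue. The question was whether the 9 genes differed between these groups and varied together from library to library.

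The leptomeninges are the thin inner membranes around the brain, and their fibroblasts make a fibrillar matrix that neurons and glia hardly make. Type I collagen (Col1a1, Col1a2) and type III collagen (Col3a1) form the fibrils, and the small leucine-rich proteoglycans decorin (Dcn), lumican (Lum) and osteoglycin (Ogn) bind to them and set their spacing. Fibronectin (Fn1) is the adhesive glycoprotein that cells hold through integrins, Aebp1 encodes a secreted collagen-binding protein, and Slc6a13 encodes GAT2, the GABA and taurine transporter of meningeal cells.

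All 9 genes are protein coding and lie on 5 chromosomes in GENCODE's annotation of GRCm38 (mm10). Dcn (chr10:97479609-97518143) and Lum (chr10:97565128-97572703) are neighbours on the plus strand of chromosome 10. The longest transcripts of the collagens have 51 exons in Col1a1 (chr11:94936224-94953042), 52 in Col1a2 (chr6:4504814-4541544) and 51 in Col3a1 (chr1:45311538-45349706). Those of Lum and Dcn have 3 and 6 exons. Fn1 (chr1:71585520-71653200) is the only member on the minus strand, with 46 exons and the longest transcript of the 9 at 8315 bases. Ogn (chr13:49608046-49624501), Slc6a13 (chr6:121300227-121337733) and Aebp1 (chr11:5861947-5872088) complete the list.

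RefSeq promoter windows on GRCm38.p6 were matched for 5 of the 9 genes, namely Col1a2, Col3a1, Ogn, Slc6a13 and Aebp1. The 250 bases before the start are shown for Aebp1, Ogn and Col3a1, because these genes varied together across libraries, as described further on, and their windows hold no annotated exon. Capitals mark matches, on either strand, to 3 motifs that recur in promoters. The TATA box was searched as TATAAA and the CCAAT box by the letters of its name. The GC box was searched as GGGCGG, and no match overlapped one of another motif.
Ogn: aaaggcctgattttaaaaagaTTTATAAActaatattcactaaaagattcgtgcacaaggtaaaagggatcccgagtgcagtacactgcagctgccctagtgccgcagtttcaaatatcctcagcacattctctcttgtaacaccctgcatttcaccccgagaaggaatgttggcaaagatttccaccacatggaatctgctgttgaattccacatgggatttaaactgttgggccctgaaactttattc
Aebp1: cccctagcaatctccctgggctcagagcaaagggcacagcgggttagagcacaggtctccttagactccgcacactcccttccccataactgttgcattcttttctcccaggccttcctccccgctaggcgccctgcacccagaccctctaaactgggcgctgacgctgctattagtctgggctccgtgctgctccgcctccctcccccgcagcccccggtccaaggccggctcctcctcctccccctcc
Col3a1: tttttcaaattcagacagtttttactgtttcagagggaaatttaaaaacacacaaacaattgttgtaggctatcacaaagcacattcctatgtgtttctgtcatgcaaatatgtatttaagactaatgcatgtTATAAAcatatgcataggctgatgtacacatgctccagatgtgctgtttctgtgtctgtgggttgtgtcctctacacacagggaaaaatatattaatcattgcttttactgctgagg

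The Ogn window (chr13:49607765-49608014, plus strand) held TATAAA at bases -227 to -222 and, overlapping it on the opposite strand, at -229 to -224, counted back from the start. The Col3a1 window (chr1:45311288-45311537, plus strand) held TATAAA at -117 to -112, and the Aebp1 window (chr11:5861616-5861865, plus strand) held none of the 3 motifs. The windows of Col1a2 and of the first of 3 start sites of Slc6a13 each held GGGCGG 2 times, and that of Col1a2 also held CCAAT. Over 27025 windows of the same length, 13% held TATAAA, 34.5% CCAAT and 32.9% GGGCGG, so no motif was shared by all 5 genes and each was common in promoters at large.

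The amygdala libraries held 23148078 to 31366290 sequences, of which 91.33 to 92.3% mapped to 1 place, and no 2 libraries were identical. The neuronal gene Snap25 was at 775 to 998 FPKM (fragments per length of transcript and number of mapped fragments), which marks brain tissue but not amygdala. The 7 markers of amygdala nuclei summed to 63.6 to 96.6 FPKM in HC, 76.7 to 110 in FC and 69.6 to 93.4 in Immo+FC. No other brain region was there for comparison. Of 9 markers of muscle, bone and skin the actin gene Acta1 was at 3.17 to 4.58 FPKM and the other 8 did not exceed 0.742. Markers of the choroid plexus, the tissue of the ventricles that makes cerebrospinal fluid, split the libraries. Their summed level was 5.27 to 7.45 FPKM in 5 libraries (HC 4, 5 and 6, FC 1 and 2) and 91.6 to 1089 FPKM in the other 11, which include all 4 Immo+FC libraries. Values within these 11 libraries are therefore given further on.

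The 9 genes covered a wide span of levels. On the FPKM scale, which is per transcript length, Dcn was the highest at 10.5 ± 7.62 (mean ± SD, n = 16), followed by Fn1 at 3.75 ± 0.692, Aebp1 at 1.27 ± 0.47 and Slc6a13 at 1.21 ± 0.422. The level of Col1a2 was 0.817 ± 0.284, that of Col1a1 0.713 ± 0.213, that of Ogn 0.566 ± 0.351, that of Lum 0.353 ± 0.166 and that of Col3a1 0.188 ± 0.0517 FPKM. Fn1 stood above Aebp1, and Slc6a13 above Col1a2, in all 16 libraries, and Dcn above Fn1 and Lum above Col3a1 in 14. The other neighbours were closer. Col1a1 exceeded Ogn in 12 of 16 libraries, Ogn exceeded Lum in 11, Col1a2 exceeded Col1a1 in 11 and Aebp1 exceeded Slc6a13 in 8, and the ranges of these pairs overlapped. Lum and Col3a1 fell below the mean of 0.5 FPKM set for the test across genes, and the other 7 passed it.

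The genes also differed in how far their level moved among libraries of the same group. The within-group SD of log2(FPKM + 0.1) was 0.99 for Dcn, 0.65 for Ogn, 0.55 for Lum, 0.48 for Aebp1, 0.38 for Slc6a13, 0.37 for Col1a1, 0.34 for Col1a2, 0.22 for Col3a1 and 0.20 for Fn1. The pseudocount of 0.1 FPKM lowers this spread most in Col3a1, the gene of lowest level. The SD of Dcn exceeded that of 99.2% of the 13508 genes tested, and that of Fn1, the steadiest member, still exceeded 78.8%.

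Decorin, the proteoglycan that coats collagen fibrils, was the most uneven member. Its level in HC libraries 1 to 6 was 27.1, 20.1, 10.4, 5.57, 5.72 and 3.11 FPKM. In FC libraries 1 to 6 it was 6.34, 5.77, 8.57, 6.47, 20.4 and 9.12 FPKM, and in Immo+FC libraries 1 to 4 it was 4.65, 5.17, 23.03 and 5.85 FPKM. Each group thus held at least 1 library above 20 FPKM beside others near 5, and the groups overlapped over most of their range. No member separated 2 groups fully, where 1.39%, 2.28% and 2.57% of all genes tested did so in FC vs HC, Immo+FC vs FC and Immo+FC vs HC. Dcn made up between 25.5 and 73.5% of the summed FPKM of the 9 genes in a library, so a sum over the list mostly follows this gene.

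Osteoglycin had the largest differences of the 9 genes in both comparisons with Immo+FC over the 16 libraries. Its level in HC libraries 1 to 6 was 0.639, 0.544, 0.438, 0.166, 0.263 and 0.284 FPKM. The FC libraries 1 to 6 had 0.262, 0.227, 0.200, 0.630, 1.15 and 0.570 FPKM, and the Immo+FC libraries 1 to 4 had 0.888, 1.33, 0.554 and 0.914 FPKM. Of the 4 Immo+FC libraries, 3 stood above every HC library, whereas FC library 5 was higher than all Immo+FC libraries except library 2.

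The transporter gene Slc6a13 was at 1.66 FPKM in HC library 1 and between 0.953 and 1.06 in the other 5 HC libraries. In FC libraries 1 to 6 it was at 0.725, 0.856, 0.761, 0.959, 1.69 and 1.27 FPKM, and in Immo+FC libraries 1 to 4 at 1.76, 2.26, 1.22 and 1.13 FPKM. The 2 highest Immo+FC libraries exceeded every library of the other groups, and the 2 lowest lay inside the FC range. Aebp1 had a median of 1.03 FPKM in HC (range 0.775 to 1.69), of 1.15 in FC (range 0.645 to 2.09) and of 1.41 in Immo+FC (range 1.13 to 2.26).

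Fibronectin was the narrowest in range. HC libraries 1 to 6 had 3.24, 3.16, 3.62, 3.16, 3.17 and 3.42 FPKM of Fn1, FC libraries 3.59, 3.87, 3.24, 4.06, 4.22 and 4.24, and Immo+FC libraries 3.34, 5.75, 4.55 and 3.42. Of the 6 FC libraries, 4 stood above all HC libraries. The plot of FPKM by group shows this beside the broad scatter of Dcn.

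**Figure D1:**
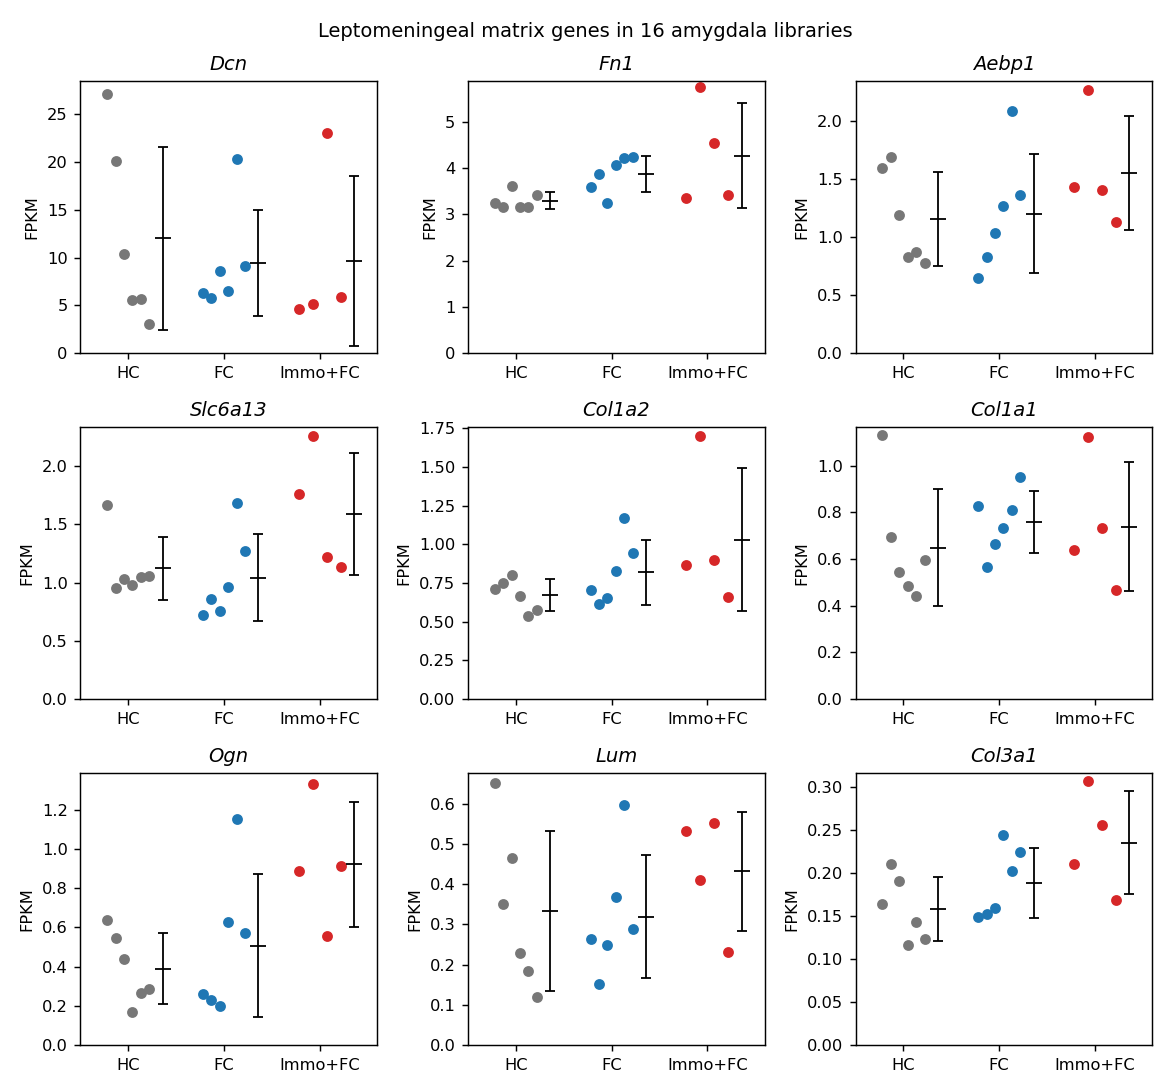
FPKM (vertical axes, linear, from 0) of each of the 9 genes in the 6 HC, 6 FC and 4 Immo+FC amygdala libraries, with points in the order of their library numbers from left to right and the group mean ± SD in black beside them. All 9 genes overlap between all groups, and Dcn runs from 3.11 to 27.1 FPKM while Fn1 runs from 3.16 to 5.75.

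The fibrillar collagens lay lower. Col1a2 had a median of 0.690 FPKM in HC (range 0.536 to 0.803), of 0.767 in FC (range 0.616 to 1.17) and of 0.883 in Immo+FC (range 0.658 to 1.70). Col1a1 lay between 0.444 and 1.13 FPKM in the HC libraries with a median of 0.572, and between 0.566 and 0.951 with a median of 0.771 in the FC libraries, while the 4 Immo+FC libraries lay between 0.47 and 1.12 with a median of 0.684. Col3a1 never exceeded 0.307 FPKM, the value of Immo+FC library 2. The genes of the 2 chains of type I collagen did not keep a fixed ratio, with Col1a1 over Col1a2 at 0.660 in Immo+FC library 2 and 1.59 in HC library 1. Lumican, the partner of decorin on collagen fibrils, spanned 0.118 to 0.652 FPKM in HC, 0.152 to 0.597 in FC and 0.232 to 0.554 in Immo+FC.

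Fear conditioning was assessed first (FC vs HC). None of the 7 members tested passed an adjusted p of 0.05 in limma, against 0.0148% of all genes (2 of 13508), and 0 of the 7 had an unadjusted p below 0.05, against 13.1% of all genes. Fn1 came closest, with an FC mean of 3.87 ± 0.394 FPKM against 3.29 ± 0.188 in HC (SD, n = 6 each). Its log2 difference was 0.22 (SE 0.11, 95% interval -0.0081 to 0.45, adjusted p = 0.399 in limma), while an exact permutation test of that gene alone, two-sided and unadjusted over the 27 such tests made, gave p = 0.0130. The differences of Col1a1, Col1a2 and Ogn were 0.24, 0.23 and 0.20 on the log2 scale, with SEs of 0.20, 0.19 and 0.34. Those of Aebp1 (0.025, SE 0.25), Slc6a13 (-0.13, SE 0.20) and Dcn (-0.10, SE 0.50) were smaller than their errors. The 95% interval of Dcn, from -1.16 to 0.96, shows how little the spread between libraries allows to be said of this gene. Among all 9 genes, 7 had a higher estimate in FC, where 56.5% of the genes tested did, with a median log2 difference of 0.16 against 0.015 over all genes.

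Previous immobilization was then set against conditioning alone (Immo+FC vs FC). Again 0 of 7 members passed an adjusted p of 0.05 in limma (0.0222% of all genes did), and 2 of 7, Ogn and Slc6a13, had an unadjusted p below 0.05 with a higher mean in Immo+FC. Of all genes, 10.4% had such a p, 3.94% with a higher mean. Ogn was at 0.922 ± 0.318 FPKM in Immo+FC (SD, n = 4) and 0.507 ± 0.365 in FC (n = 6), a log2 difference of 0.90 (SE 0.38, 95% interval 0.086 to 1.71, adjusted p = 0.418 in limma, exact permutation p = 0.0857). Slc6a13 was at 1.59 ± 0.524 FPKM against 1.04 ± 0.372, a difference of 0.57 (SE 0.23, 95% interval 0.095 to 1.05, adjusted p = 0.376 in limma, exact permutation p = 0.0810). The limma interval of each gene, which is not adjusted for the number of genes, thus lay above 0. Neither gene passed after adjustment over all genes tested, and the exact permutation p of each was above 0.05. Estimates for Aebp1 (0.39, SE 0.28), Col1a2 (0.25, SE 0.21), Fn1 (0.11, SE 0.12), Col1a1 (-0.075, SE 0.23) and Dcn (-0.17, SE 0.56) had adjusted p from 0.655 to 0.941 in limma. Of the 9 genes, 7 had a higher estimate in Immo+FC, where 40% of all genes tested did, and their median was 0.25 against -0.023 over all genes.

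The third comparison, Immo+FC vs HC, uses the same libraries as the others and is no further evidence beside them. Of 7 members 0 passed an adjusted p of 0.05 in limma (0.2% of all genes did), and 3 of 7, Ogn, Fn1 and Col1a2, had an unadjusted p below 0.05 with a higher mean in Immo+FC. Of all genes, 13.1% had such a p, 5.34% with a higher mean. The log2 difference was 1.10 for Ogn (SE 0.38, 95% interval 0.29 to 1.91, adjusted p = 0.232 in limma, exact permutation p = 0.0238). It was 0.48 for Col1a2 (SE 0.21, adjusted p = 0.341, exact permutation p = 0.0429) and 0.33 for Fn1 (SE 0.12, adjusted p = 0.257, exact permutation p = 0.0429). Col3a1, which was too low for the limma fit, differed by 0.37 with an exact permutation p of 0.0429. These exact values are unadjusted, and with 6 against 4 libraries the smallest possible is 0.0048. Estimates were higher in Immo+FC for 8 of the 9 genes, where 45.3% of all genes tested were higher, and Dcn alone had a lower one (-0.27, SE 0.56). The median of the 9 was 0.38 against -0.012 over all genes.

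**Figure D2:**
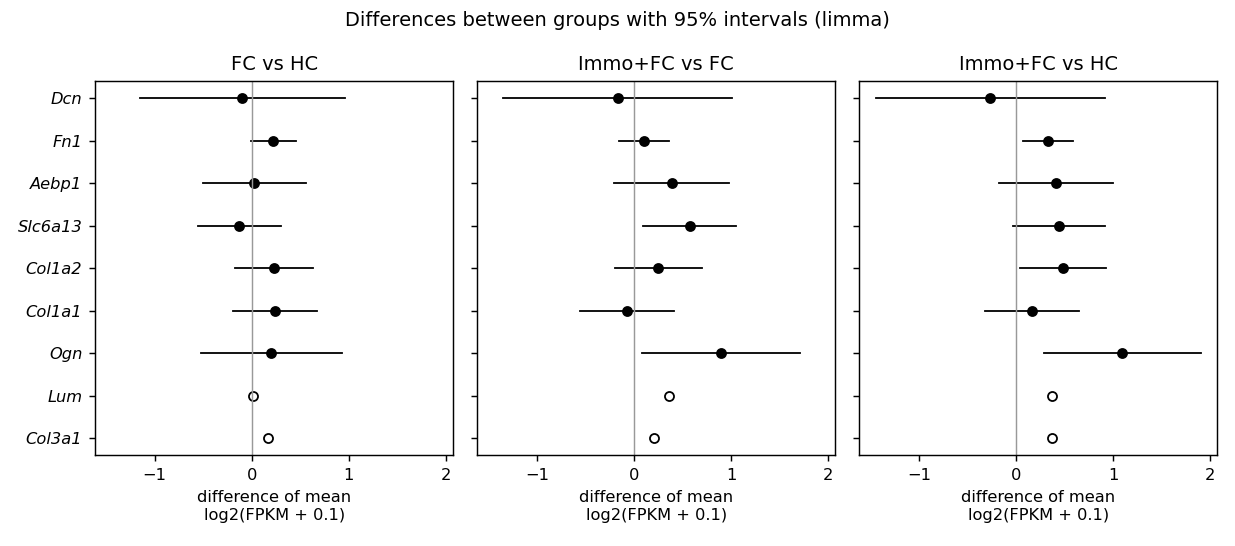
Difference of mean log2(FPKM + 0.1) (horizontal axes) for each gene in the 3 comparisons of amygdala groups, with 95% intervals from limma for the 7 genes tested and open circles without intervals for Lum and Col3a1. The intervals of Dcn are the widest, and those of Ogn lie above 0 in both comparisons with Immo+FC although its adjusted p was 0.418 and 0.232.

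The choroid plexus markers moved with part of these estimates. None of the 16 markers tested passed an adjusted p of 0.05, with median log2 differences of 0.22, 1.06 and 1.22 in the 3 comparisons, and their sums ranged from 5.27 to 1089 FPKM in HC, 6.01 to 940 in FC and 120 to 988 in Immo+FC. Aebp1 was at 0.645 to 0.868 FPKM in the 5 libraries with few choroid plexus transcripts and at 1.03 to 2.26 in the other 11. Col3a1 also separated, at 0.116 to 0.152 against 0.159 to 0.307 FPKM, while Ogn, Slc6a13, Dcn, Fn1, Lum, Col1a1 and Col1a2 overlapped between these libraries. Within the 11 libraries alone, the Immo+FC vs FC difference of Aebp1 was 0.11 and that of Slc6a13 was 0.42, while Ogn stood at 0.59 and Dcn at -0.41. The Immo+FC vs HC difference was then 0.63 for Ogn, 0.35 for Slc6a13, 0.31 for Fn1 and -1.23 for Dcn (adjusted p = 0.407 in limma), and 0 of the members tested passed the adjusted threshold. The Immo+FC vs HC difference of Col3a1 was 0.20 in these libraries, that of Col1a2 was 0.33, and that of Lum turned from 0.38 to -0.16. The level of 317 genes with transcripts over 10 kb moved with the FC group, since it lay 0.093 to 0.32 (log2) below its mean in all 6 FC libraries, in HC libraries 1 and 2 and in Immo+FC library 1, and 0.21 to 0.26 above it in the other 7. With this level as a covariate, Ogn stood at 1.04 and 1.10 and Slc6a13 at 0.64 and 0.45 in Immo+FC vs FC and Immo+FC vs HC. The part of long transcripts and of choroid plexus tissue in these results was not tested. In tissue RNA, moreover, more cells of a type and more RNA in each cell cannot be told apart.

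**Figure D3:**
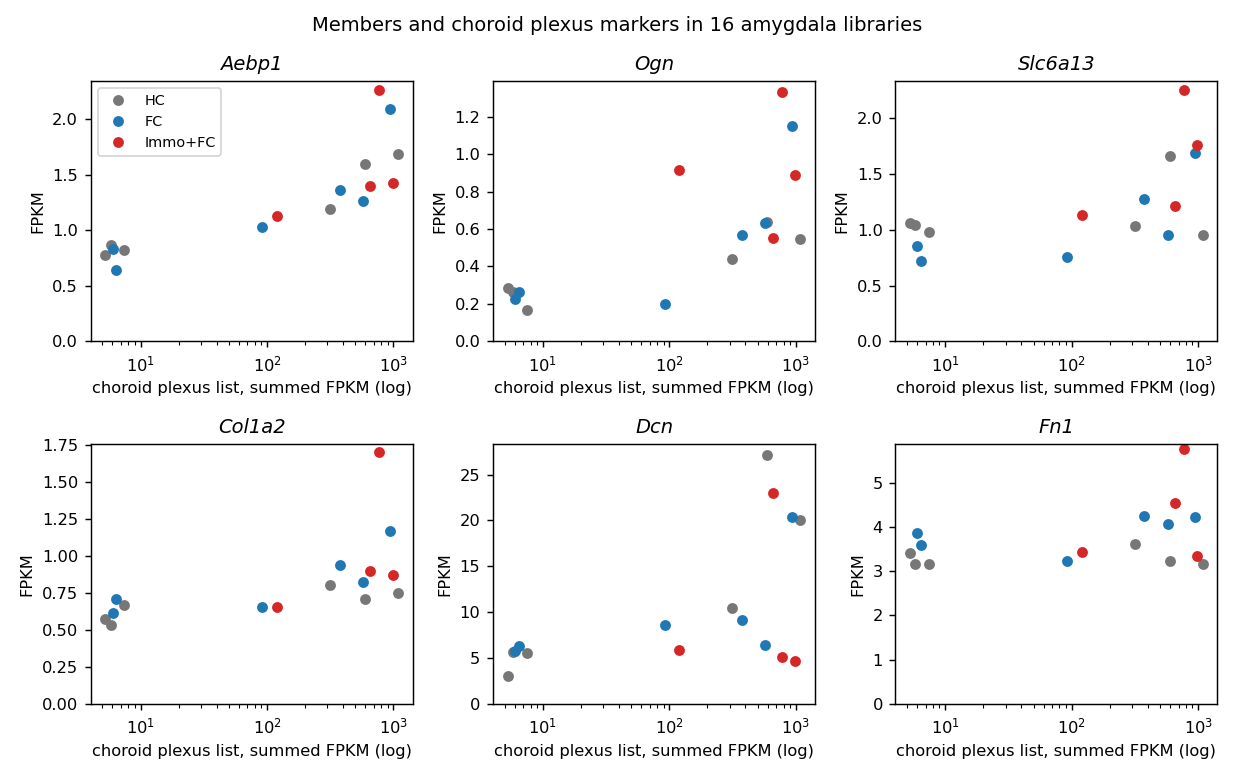
FPKM of 6 of the genes (vertical axes, linear) against the summed FPKM of choroid plexus markers (horizontal axes, log scale) in the 16 amygdala libraries, coloured by group. A group of 5 libraries lies at 5.27 to 7.45 FPKM and 11 lie at 91.6 to 1089, and Aebp1 is the gene shown whose levels do not overlap between them.

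Beyond the groups, the 9 genes varied together across libraries. After group means were subtracted, Pearson's r was positive for all 36 pairs, from 0.143 to 0.853 with a median of 0.615, and 20 pairs passed an adjusted p of 0.05 for both Pearson's r and Spearman's rho (permutation within groups, adjusted over the 36 pairs). The share of other gene pairs that would pass was not computed. The genes and lists were chosen with earlier results of these data known, so the p values of correlations here and below are descriptions only. The closest pair was Ogn and Aebp1, with r = 0.853, rho = 0.797 and an adjusted permutation p of 0.0045 for r, and r was 0.850 without the 2 libraries farthest from the median. Aebp1 and Col1a2 had r = 0.796 and rho = 0.826 (adjusted permutation p = 0.0045; r = 0.704 without 2 libraries). Slc6a13 followed Ogn with r = 0.770 and rho = 0.706 (adjusted permutation p = 0.00821; r = 0.645 without 2 libraries). Dcn and Lum, the neighbours on chromosome 10, had r = 0.770 and rho = 0.703 (adjusted permutation p = 0.0112; r = 0.711 without 2 libraries).

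Dcn and Fn1 were the members least tied to the rest. Each passed both tests with only 2 of the other 8 genes, Dcn with Lum and Aebp1 and Fn1 with Col1a2 and Col3a1, whereas Aebp1 and Col1a2 each did so with 7. Between Dcn and Fn1 r was 0.143, the lowest of all pairs. Within the 11 libraries rich in choroid plexus transcripts, r stayed positive for all 36 pairs with a median of 0.514, but no pair passed an adjusted p of 0.05, the smallest being 0.0849. The highest r in those libraries were 0.873 for Col1a2 with Fn1 and 0.862 for Col1a2 with Aebp1.

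**Figure D4:**
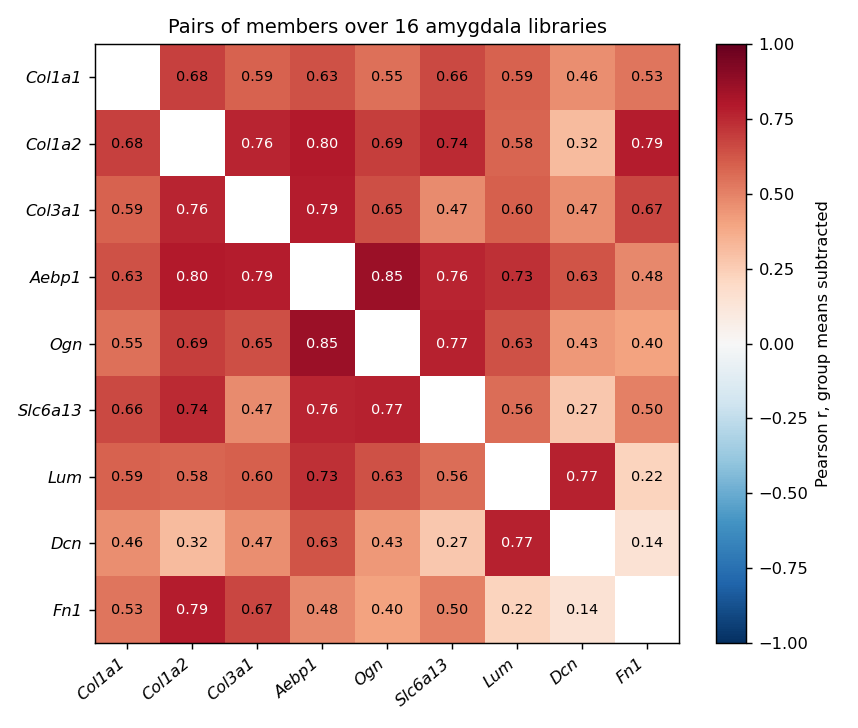
Pearson's r between the log2(FPKM + 0.1) of each pair of the 9 genes over 16 amygdala libraries after subtracting group means, as colour and number, with both axes listing the genes. Values run from 0.14 between Dcn and Fn1 to 0.85 between Ogn and Aebp1, and all are above 0.

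The label of the genes was checked against 37 other genes of meningeal cells, among them Ptgds, which makes prostaglandin D2 and is at 78.5 to 314 FPKM, the growth factor gene Igf2 at 2.81 to 14.4 FPKM and Slc6a20a, a proline transporter, at 1.57 to 3.60 FPKM. Over the 16 libraries, with group means subtracted, the mean log2 level of that list had r = 0.899 with Aebp1, 0.886 with Slc6a13, 0.884 with Ogn and 0.854 with Col1a2. All 4 passed both Pearson and Spearman tests, with adjusted permutation p from 0.00126 to 0.00362 for Pearson's r over the 63 relations of 9 genes with 7 lists. Their Spearman rho was 0.83, 0.753, 0.794 and 0.841, and without the 2 farthest libraries r was 0.836, 0.789, 0.835 and 0.744. Col1a1 (r = 0.714), Lum (0.713) and Col3a1 (0.652) passed for Pearson's r only. Dcn (r = 0.401, rho = 0.306, adjusted permutation p = 0.210) and Fn1 (r = 0.494, rho = 0.438, adjusted permutation p = 0.172) did not pass either test. Thus 4 of the 9 genes passed both tests with this list, but such relations were not particular to it. Aebp1 also passed both with markers of astrocytes (r = 0.676) and of ependymal cells, described below (0.823). Col1a2 did so with perivascular macrophages (0.820) and astrocytes (0.759), and Slc6a13 with perivascular macrophages (0.700). Of all 63 relations, 14 passed both tests. The sums of the meningeal list were 215 to 231 FPKM in the 5 libraries with few choroid plexus transcripts and 258 to 503 in the other 11.

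Fn1 varied with markers of the vessel wall, with r = 0.873 and rho = 0.818 against 13 markers of pericytes and smooth muscle (adjusted permutation p = 0.0140; r = 0.736 without 2 libraries). Against 13 endothelial markers it had r = 0.762 and rho = 0.774 (adjusted permutation p = 0.0257; r = 0.623 without 2 libraries). Fn1 also passed both tests with perivascular macrophages, so its relations were not particular to the vessel wall. There r was 0.711 and rho 0.679 (adjusted permutation p = 0.0175, r = 0.463 without 2 libraries). For the other 8 genes r with the endothelial list lay between -0.162 and 0.337. Lum had r = -0.717 and rho = -0.712 with 8 neuronal markers (adjusted permutation p = 0.0230; r = -0.772 without 2 libraries).

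Within the 11 libraries rich in choroid plexus transcripts, none of 72 such relations passed an adjusted p of 0.05. There r with the meningeal list was 0.946 for Slc6a13 (rho = 0.955, adjusted permutation p = 0.0785), 0.887 for Aebp1 and 0.852 for Ogn. That of Dcn was near 0, with a rho of -0.0091. The choroid plexus list itself had r = 0.795 with Aebp1 (rho = 0.827, adjusted permutation p = 0.181), 0.634 with Ogn and 0.589 with Slc6a13 in these libraries. Markers of ependymal cells, the ciliated lining of the ventricles, summed to 10.9 to 12.2 FPKM in the other 5 libraries and to 16.5 to 39.7 in these 11. Within the 11, their r was 0.684 with Lum (rho = 0.600, adjusted permutation p = 0.219), 0.513 with Aebp1 and 0.222 with Dcn. Over all 16 libraries the levels of both lists form separate clusters, so an r there can reflect the split of libraries. The part of this split in any r over 16 libraries, that of the meningeal list included, was not tested. The r of the ependymal list over 16 libraries ran from 0.0974 for Fn1 to 0.857 for Lum, with 0.823 for Aebp1 and 0.679 for Dcn. Lum and Aebp1 passed both tests with it. No r over 16 libraries is given for the choroid plexus list.

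**Figure D5:**
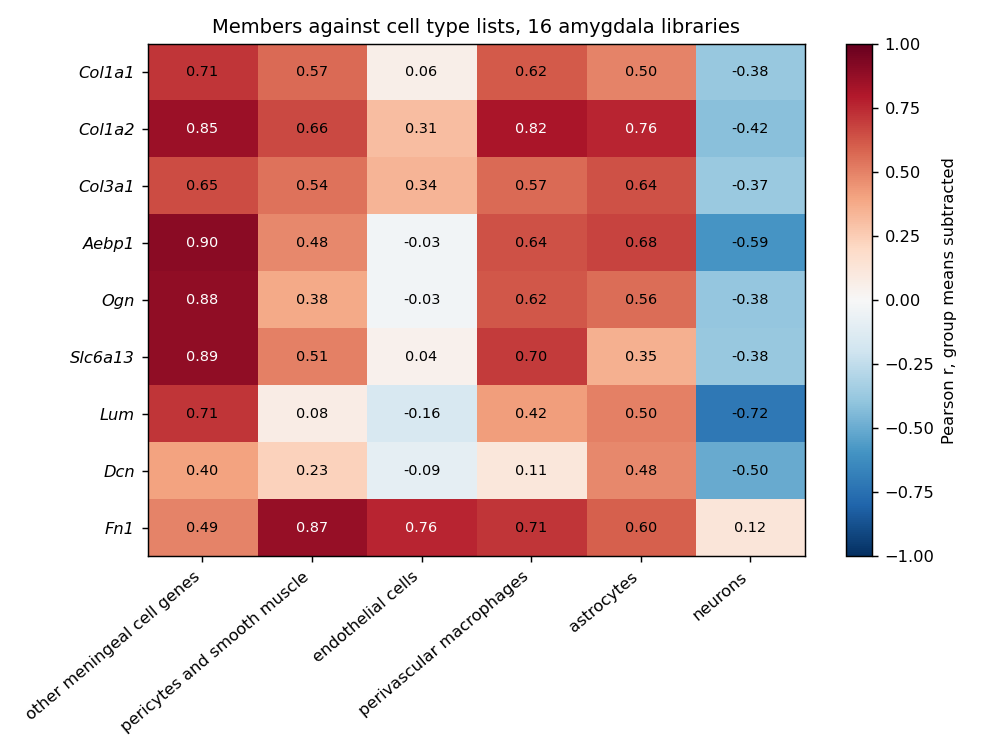
Pearson's r between each of the 9 genes (vertical axis) and the mean log2 level of 6 cell type lists (horizontal axis) over 16 amygdala libraries after subtracting group means, as colour and number. Aebp1, Slc6a13 and Ogn have their highest values with the meningeal list (0.90, 0.89 and 0.88), and Fn1 with pericytes and smooth muscle (0.87).

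Among 13501 other genes, those whose pattern was most like the mean of the 7 tested members over the 16 libraries, with group means subtracted, were Car12 (r = 0.938), Prlr (0.925), Sema3b (0.917), Notch2 (0.916) and Igf2 (0.915). Steap1, Pcolce, Slc12a7, Tgfbr3 and Dlec1 followed with r from 0.914 down to 0.901. Pcolce encodes an enhancer of procollagen cleavage, Tgfbr3 a co-receptor for TGF-beta, and Prlr, the prolactin receptor, was on the choroid plexus list. Only 5 of the 10 stayed among the first 10 when group means were not subtracted. Single genes most like 1 member, named after their values were seen, were Acta2, the smooth muscle actin, for Col1a1 (r = 0.915), Colec12 for Slc6a13 (0.918), Sema3b for Aebp1 (0.944), Vit for Lum (0.938) and Krt2 for Dcn (0.946). For the other members they were Lrp5 for Col1a2 (0.889), Vamp8 for Col3a1 (0.927), Sema3b for Ogn (0.881) and Zfp335 for Fn1 (0.883). All genes share the depth and tissue content of a library, and both differed between libraries, so these r are descriptions only.

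The genes that act on these proteins were taken from lists. Among 27 tested genes of collagen assembly and processing, 0 passed in FC vs HC, 0 in Immo+FC vs FC and 1 in Immo+FC vs HC, with list medians of 0.036, -0.0090 and 0.052 on the log2 scale. That gene was P4ha1, a subunit of the prolyl hydroxylase that collagen needs for a stable helix, at 11.8 FPKM in Immo+FC and 8.04 in HC (log2 difference 0.55, SE 0.11, adjusted p = 0.0494 in limma). No gene passed in this comparison, P4ha1 included, without HC library 2 or 5 or without Immo+FC library 1, 2 or 3. Within the 11 libraries rich in choroid plexus transcripts no gene passed either, with a difference of 0.54 for P4ha1. None passed among 33 other matrix genes, 13 fibronectin and collagen receptors, 17 genes of TGF-beta and connective tissue growth factors or 20 other meningeal genes. The meningeal list had medians of -0.0081, 0.29 and 0.33 in the 3 comparisons, beside 0.16, 0.25 and 0.38 for the 9 genes, and Ptgds, its most abundant member, had a log2 difference of 0.77 in Immo+FC vs FC (SE 0.29, adjusted p = 0.360 in limma) and 0.93 in Immo+FC vs HC (SE 0.29, adjusted p = 0.179). Nov, the next most abundant, went the other way, at -0.26 and -0.30 (SE 0.12 each, adjusted p = 0.458 and 0.299 in limma). Of the 20 genes, 16 had a higher estimate in Immo+FC in each of these comparisons. At an unadjusted limma p below 0.05, 4 were higher and 1 lower than in FC, and 2 higher and 2 lower than in HC.

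Among transporters related to Slc6a13, the astrocytic GABA transporter gene Slc6a11 was at 23.2 FPKM in Immo+FC and 26.1 in FC (log2 difference -0.17, SE 0.11, adjusted p = 0.601 in limma). The taurine transporter gene Slc6a6 was at 19.6 and 22.1 FPKM (log2 difference -0.18, SE 0.060, adjusted p = 0.295 in limma), and neither passed. For comparison with another tissue, the table also holds 14 libraries of trunk blood, which the authors normalized separately. Aebp1 was listed at 0 in 6 of these and at most at 0.198 FPKM, Ogn reached 0.210 and Col1a2 0.763, whereas Fn1 was at 7.49 to 58.0 FPKM, Dcn at 0.770 to 3.65 and Slc6a13 at 0.308 to 4.12. Col1a1 and Col3a1 were at most at 0.713 and 0.533. The means of Fn1, Slc6a13 and Col3a1 were higher in blood (19.5, 1.51 and 0.282 FPKM) than in amygdala (3.75, 1.21 and 0.188). Those of the other members were lower. Fn1, Dcn, Slc6a13 and the 3 collagen genes were above 0 in all 14 blood libraries.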

How the data were processed

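The authors made poly-A selected libraries from pools of 2 mice, sequenced them in paired reads, aligned these to mm10 with STAR 2.3 and computed FPKM values with Cufflinks and Cuffdiff 2.1.1, tissue by tissue. The deposited table holds 1 FPKM value per gene entry and library, and 272 entries join the symbols of overlapping genes. The deposited mapping table gives total sequences as counts and mapped shares as percent values. No read counts per gene are held, so the fragments behind a low FPKM are unknown.

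Values were taken as log2(FPKM + 0.1), and genes averaging 0.5 FPKM or more in amygdala were fitted with limma 3.58.1 in R 4.3.3 (eBayes with trend, 3 groups in 1 fit, no covariates), with Benjamini-Hochberg adjustment over all 13508 genes. A fold change on this scale understates that of low genes. Cuffdiff, which needs reads, was not run. Single genes were also compared by exact permutation of libraries. Correlations were tested with 100000 permutations within groups. The steps were tested on simulated data. Libraries of a group are separate pools of mice.

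The 9 genes and the lists were chosen with earlier results of these data known. Named genes are all 9 members, the most abundant 4 genes of a list (of which only some are printed), every list gene past the threshold, and the 10 genes most like the members. Genes most like 1 member were named outside these rules, as was Slc6a20a, which is among the 10 genes most like Slc6a13 and most like Col1a2. 1 gene of the lists is not reported here. Positions come from GENCODE vM21 and promoters from RefSeq. Same replicate numbers in different groups did not pair the libraries. Alternatives were other pseudocounts, minimum values, scalings, weights, fits and libraries left out.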

Additional observations from a re-analysis of the deposited data

Results flagged for a closer look

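In 4 of the 27 sets of 1 gene in 1 group, a single amygdala library stood apart from the others of its group by Dixon's criterion. For independent sets of normally distributed values the rate is about 1 in 20. Here FPKM was used without logarithm and the genes share their libraries, so that rate is no measure of an excess. Dcn was at 20.4 FPKM in FC library 5 and at 23.03 FPKM in Immo+FC library 3. Col1a1 was at 1.13 FPKM and Slc6a13 at 1.66 FPKM in HC library 1. HC library 1 also had the highest summed level of the 9 genes, at 36.9 FPKM.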

How the results depend on the processing

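No member passed the adjusted threshold in any comparison under any of 29 other settings, so a change of setting did not alter a call. Of 753 recomputed log2 differences of members, 713 kept their sign and 40 changed it, and 16 of the 27 differences never changed sign. Of these 40, 8 were of Lum, which is below the minimum, with FC vs HC at -0.33 and Immo+FC vs HC at -0.16 within the 11 libraries. Immo+FC vs HC of Ogn was 0.92 to 1.29 and Immo+FC vs FC of Slc6a13 was 0.40 to 0.71 with single libraries left out. The cause of the reversed signs was not tested. With array weights, Dcn was 0.12 in FC vs HC and 0.031 in Immo+FC vs HC, and Col1a1 was 0.071 in Immo+FC vs FC. Without Immo+FC libraries 1 and 2, Col1a2 was -0.050 and Dcn 0.45 in Immo+FC vs FC, and Col1a1 was -0.070 and Dcn 0.35 in Immo+FC vs HC. Further settings were chosen after seeing the data. In the 11 libraries rich in choroid plexus transcripts, Aebp1 was -0.080 in FC vs HC and Col1a1 -0.089 in Immo+FC vs HC. With the choroid plexus level as a covariate these were -0.033 and -0.032. With the level of transcripts over 10 kb as a covariate, Aebp1 was -0.14 in FC vs HC, and Col1a1, Dcn and Fn1 were 0.13, 0.26 and -0.060 in Immo+FC vs FC. With single libraries left out, FC vs HC spanned -0.14 to 0.17 for Aebp1, -0.40 to 0.21 for Dcn, -0.049 to 0.36 for Ogn and -0.16 to 0.19 for Lum. Immo+FC vs FC spanned -0.70 to 0.083 for Dcn, -0.045 to 0.21 for Fn1 and -0.27 to 0.10 for Col1a1, and Immo+FC vs HC -0.80 to 0.047 for Dcn and -0.036 to 0.33 for Col1a1. Col3a1 in Immo+FC vs HC was 0.092 at a pseudocount of 1. The r of the mean member level with the endothelial list was 0.049, and -0.38 with log2 of summed FPKM.

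Counts over all genes were far less stable than the absence of member calls. They were 2, 3 and 27 in FC vs HC, Immo+FC vs FC and Immo+FC vs HC. With no minimum they were 1, 2 and 6, with median-ratio scaling 2, 1 and 24, with only the groups compared 2, 67 and 0, and with array weights 500, 171 and 16. Scaling moved the split of calls in Immo+FC vs HC from 16 higher and 11 lower to 18 higher and 6 lower. Without Immo+FC libraries 1 and 2 they were 2, 1 and 0, within the 11 libraries 1, 1 and 0, with the choroid plexus covariate 3, 49 and 45, and with the long transcript covariate 1, 3 and 40. With single libraries left out they ranged from 1 to 143 (without HC library 1), 1 to 144 (without Immo+FC library 1) and 0 to 148 (without Immo+FC library 4). Same-numbered libraries did not deviate together (r over 0.1 in 3 of 14 pairs, and 3 of 14 correlating best with their own number), so the replicate block has no basis in a pairing. With that block the counts were 160, 62 and 0, and 0 members passed.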
